A study of Mus musculus with 4 samples.

Results

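The genes described here are 48 interferon-stimulated genes and their regulators, listed by name for their place in the interferon system. Of the 48, 45 had at least 1 probe set with a single gene symbol, among 18193 such genes in the whole table. Where a gene had several probe sets, the one with the highest average signal was used. Isg15 and Tgtp1 lay only on probe sets that carry another symbol too and are given apart, without a test. Ifi44 was not analysed here.

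Type I interferons are secreted proteins that bind a receptor made of Ifnar1 and Ifnar2. The receptor's kinases Jak1 and Tyk2 then activate signal transducers, among them Stat2, which joins the DNA-binding factor Irf9 on the interferon-stimulated response element (ISRE) of target promoters. Interferon gamma acts through another receptor and another element, the gamma-activated sequence (GAS). Cytoplasmic sensors of viral RNA switch on the interferon genes themselves through Irf3 and Irf7. The targets block viral translation, degrade RNA, mark proteins with ubiquitin-like tags and attract leukocytes. Stem cells of several tissues are known to hold part of these genes at basal levels with no interferon added.

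RNA came from a pair of sublines of mouse neural stem cells, with 2 arrays each. All 4 samples derived from neuroepithelial cells of the telencephalon of p53-/- C57BL/6 embryos at E14.5, grown as floating spheres without serum, with bFGF and PDGF. All were transfected by electroporation with pCMS-EGFP-HRasL61, which carries EGFP and an activated HRas, and with pBabe-neo. They were selected in neomycin and sorted for GFP. The GIC subline is labelled tumorigenic and glioma-initiating cell-like, and the non-GIC subline is labelled nontumorigenic. No untransfected or p53 wild-type cells were among the 4 samples, and no interferon treatment is labelled. Any other difference between the sublines goes along with tumorigenicity and cannot be told apart from it. Each sample's description begins with a code of its own that the labels do not explain, so whether a subline is 1 clone or several is not given in the sources used here.

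The deposited value is a log2 signal per probe set, with array medians of 6.58 to 6.63. Genes were tested with limma, a linear model with a variance shared across genes, if at least 2 arrays lay above the level of 5.97 (the 40th percentile of all values). This left 13366 genes. Differences are GIC minus non-GIC on the log2 scale, and p-values were adjusted over all tested genes by the Benjamini-Hochberg method with a threshold of 0.05. Whether the 2 samples of a group were separate cultures is not labelled, and the p-values reflect only how far these samples spread, which may be technical. The neural stem cell markers Nes, Sox2, Vim and Msi1 lay above the filter level on all 4 arrays, and Prom1 and Olig2 lay below it on all 4. Of the 11 neural stem and progenitor markers 9 were tested, and 2 were called lower and 0 higher in GIC. Nes differed by -2.07 (limma adjusted p = 0.0459) and Fabp7 by -1.51 (0.0258), and Fabp7 entered the test only through the non-GIC arrays, where it was high. The other 7 did not pass, from -0.90 for Sox2 to 1.47 for Sox9. Sox9 had both GIC arrays above, and Sox2, Pax6 (-0.44) and Hes1 (-0.33) had both below. Vim, Msi1 and Hes5 had overlapping groups with differences of -0.01, -0.04 and -0.13. Among the 9 tested, both GIC arrays lay below in 5 and above in 1. The shares over all genes with a probe set were 24.2% and 22.8%. A lower signal in bulk RNA can come from fewer cells of a type or from less RNA per cell, and these cannot be told apart here.

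Most interferon genes had a higher signal in GIC, though few passed the test. Of the 45 genes with a probe set, 41 had a positive difference, which is 91.1%, against 46.8% of all 18193 genes. Their median difference was 0.805, against -0.02 for all genes. Among the 45, 21 had group means at least 2-fold higher in GIC, where the share over all genes was 3.49%, and 0 had means at least 2-fold lower, where the share over all genes was 1.73%. Both GIC arrays lay above both non-GIC arrays in 32 of the 45 (22.8% of all genes), below both in 1 (24.2% of all genes), and overlapped with them in 12. The gene with both GIC arrays below was Irf1.

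**Figure D1:**
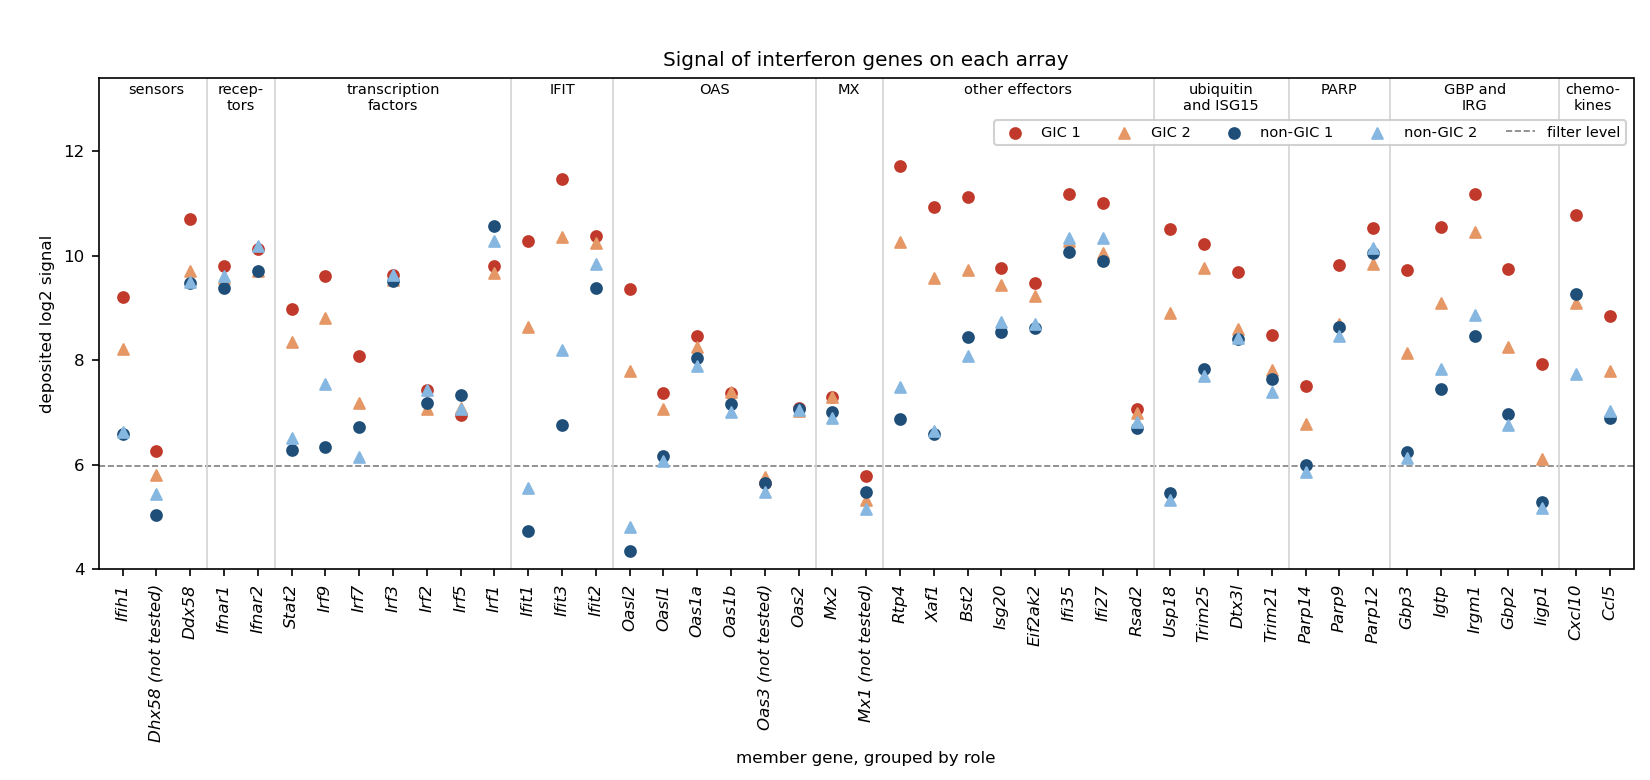
Deposited log2 signal (vertical axis) of the 45 genes with a probe set (horizontal axis, grouped by role) on each of the 4 arrays. Circles are replicate 1 and triangles replicate 2, red and orange are GIC, dark and light blue are non-GIC, and the dashed line is the filter level of 5.97. The GBP and IRG genes, Ifit1, Ifit3, Usp18, Oasl2, Xaf1 and Rtp4 show wide gaps between the sublines, while Irf3, Ifnar1, Ifnar2 and Oas2 do not. Levels of different probe sets are not comparable with each other.

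**Figure D2:**
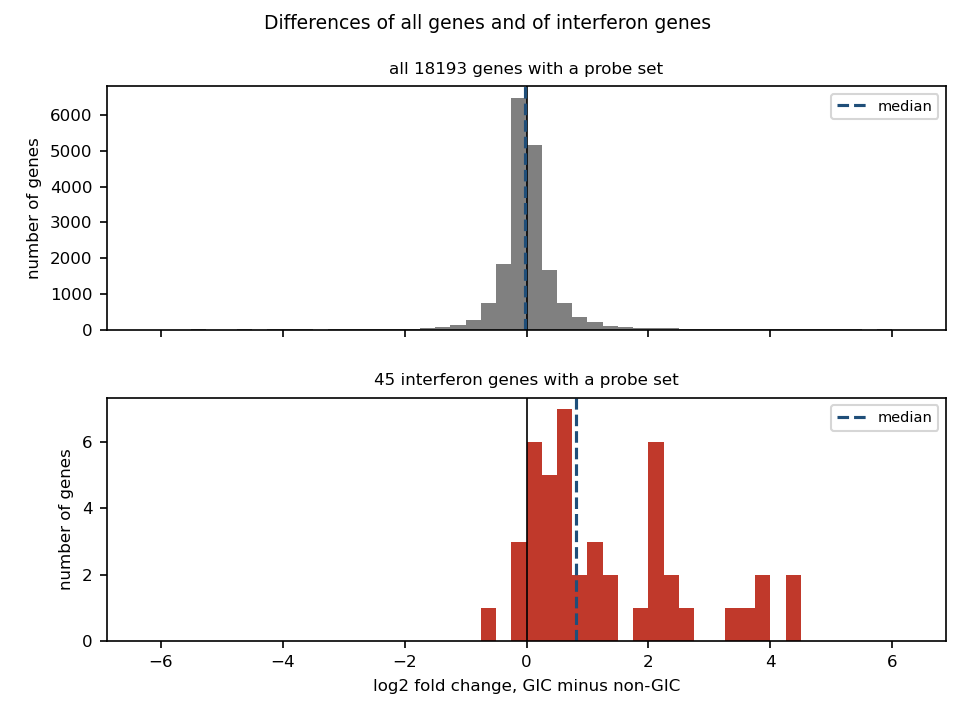
Histograms of the difference GIC minus non-GIC (log2, horizontal axis, bins of 0.25) for all 18193 genes with a probe set (top) and for the 45 interferon genes (bottom). The dashed line is the median, -0.02 for all genes and 0.805 for the interferon genes, of which 4 lie below 0.

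Of the 45 genes, 42 were tested, and 6 rose in GIC: Stat2, Trim25, Usp18, Xaf1, Oasl1 and Oasl2. Over all tested genes limma called 1.23% higher and 0.688% lower. None of the 42 was called lower by limma, and 1 was lower at an unadjusted p under 0.05 (Irf1), where the share over all tested genes was 8.1%. At that unadjusted threshold 24 members were higher, where the share over all tested genes was 9.75%. In 4 members (Ifit1, Oasl2, Usp18 and Iigp1) the filter was passed through the GIC arrays alone, so these had to differ to be tested, and Oas3, Mx1 and Dhx58 were not tested. With any 1 array left out, the median difference of the 42 tested members stayed positive. It was 0.696 when GIC replicate 1 was dropped and 1.27 when GIC replicate 2 was. Dropping non-GIC replicate 1 gave 1.01, and dropping non-GIC replicate 2 gave 0.923. Over all tested genes these medians lay between -0.024 and 0.007. The calls changed with the array dropped, among members and over all genes alike. With only 1 array left in a group, they cannot be compared with those of the main fit.

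For the type I interferon receptor no difference beyond the spread of the arrays was found. Ifnar1, the chain that binds Tyk2, had signals of 9.80 and 9.58 in GIC (replicates 1 and 2, in this order throughout) and of 9.39 and 9.61 in non-GIC. The difference was 0.19 (SE 0.19, limma adjusted p = 0.651). Ifnar2, the chain that binds Jak1, had 10.12 and 9.70 in GIC and 9.70 and 10.19 in non-GIC, a difference of -0.03. In both genes the groups overlapped. Other probe sets of these genes went the other way, with -0.07 for Ifnar1 and with 0.24 and 0.39 for Ifnar2.

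Of the 3 RNA sensors, Ifih1 (Mda5), which binds long double-stranded RNA, had the largest difference. Its signals were 9.22 and 8.22 in GIC and 6.59 and 6.63 in non-GIC. The GIC arrays lay above the others, with a difference of 2.11 (SE 0.35), and the limma adjusted p of 0.0747 missed the threshold, which it passed without GIC replicate 2 (0.0283). Ddx58 (Rig-I), which binds RNA with a 5' triphosphate, had 10.70 and 9.70 in GIC and 9.48 and 9.49 in non-GIC. Only GIC replicate 1 stood clearly apart for Ddx58, and the adjusted p was 0.387. Dhx58, which modulates both sensors, was above the filter level on GIC replicate 1 alone, at 6.27, with GIC replicate 2 at 5.82 and non-GIC at 5.04 and 5.44.

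Among the transcription factors Stat2 rose in GIC, and none of the others passed the test. Stat2 had signals of 8.98 and 8.35 in GIC and 6.28 and 6.51 in non-GIC. It rose by 2.27 (SE 0.25, limma adjusted p = 0.0343), and its other probe set had a difference of 2.01. The call was lost without GIC replicate 1 (adjusted p = 0.0700), without non-GIC replicate 1 (0.175) or 2 (0.133), and when its probe sets were averaged (0.0566). Irf9, the partner of Stat2, had 9.60 and 8.81 in GIC and 6.33 and 7.55 in non-GIC. The groups were apart by 2.26 (SE 0.49), with a limma adjusted p of 0.125. The fold for Irf9 was 3.14 if non-GIC replicate 1 was left out and 7.32 if non-GIC replicate 2 was. Irf7, which drives interferon alpha genes and is itself an interferon target, had 8.09 and 7.18 in GIC and 6.72 and 6.15 in non-GIC, with a difference of 1.20 (adjusted p = 0.206).

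The constitutive factor Irf3, which acts directly after the RNA sensors, had nearly equal signals on all arrays, from 9.52 to 9.63. Irf2, a repressor of ISRE genes, ranged from 7.08 to 7.44, and Irf5, a factor of myeloid and lymphoid cells, from 6.95 to 7.33, both with overlapping groups. Irf1, a target of interferon gamma that activates many of the same promoters, was the member with the lowest difference. It had 9.80 and 9.68 in GIC and 10.57 and 10.29 in non-GIC. Both GIC arrays lay below, by -0.69 (SE 0.19), and the limma adjusted p was 0.169.

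The letters of the element that Stat2 and Irf9 bind occur in the promoters of several members with a higher signal in GIC. Stretches of 9 of these are shown for that reason, with Irf1 as the member with the lowest difference, and they were chosen after their values were seen. Members with small log2 differences that also hold an ISRE core, such as Irf2 (-0.06), Oas1a (0.38), Oas3 (0.14) and Rsad2 (0.26), are not shown. The sequences come from RefSeq on GRCm38.p6, and 36 of the 48 members had a promoter window of 300 bases, from 250 before the start. The ISRE core was searched as GAAANNGAAA and the GAS core as TTCNNNGAA, on both strands, and matches of the 2 motifs may overlap. Each stretch has 120 bases, is written 5' to 3' on the gene's strand and lies wholly before the start base. Igtp and Tgtp1 also hold a GAS core within their stretches (ttctaggaa and ttccaggaa), which is left in lower case. Capitals mark ISRE core matches (on either strand), and in Irf1 they mark the GAS core. They lie at chr10:128270248-128270367, plus strand (Stat2), chr19:34640740-34640859, plus strand (Ifit1), chr19:34583335-34583454, plus strand (Ifit3), chr4:156200826-156200945, minus strand (Isg15), chr3:142620543-142620662, plus strand (Gbp2), chr3:142559924-142560043, plus strand (Gbp3), chr11:58199436-58199555, plus strand (Igtp), chr11:48871421-48871540, minus strand (Irgm1), chr11:48992259-48992378, minus strand (Tgtp1) and chr11:53769869-53769988, plus strand (Irf1).
Stat2: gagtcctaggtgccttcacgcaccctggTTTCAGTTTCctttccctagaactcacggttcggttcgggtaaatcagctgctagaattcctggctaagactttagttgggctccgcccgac
Ifit1: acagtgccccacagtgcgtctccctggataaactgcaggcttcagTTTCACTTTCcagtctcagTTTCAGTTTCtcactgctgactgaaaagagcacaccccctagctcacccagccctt
Ifit3: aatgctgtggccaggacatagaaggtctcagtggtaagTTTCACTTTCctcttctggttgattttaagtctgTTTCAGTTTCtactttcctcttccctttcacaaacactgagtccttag
Isg15: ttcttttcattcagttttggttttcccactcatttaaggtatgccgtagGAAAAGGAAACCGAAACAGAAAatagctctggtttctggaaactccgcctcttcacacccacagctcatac
Gbp2: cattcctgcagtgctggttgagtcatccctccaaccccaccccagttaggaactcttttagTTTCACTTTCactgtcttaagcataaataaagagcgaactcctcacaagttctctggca
Gbp3: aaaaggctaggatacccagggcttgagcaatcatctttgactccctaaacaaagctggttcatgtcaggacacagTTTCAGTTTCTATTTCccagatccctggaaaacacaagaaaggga
Igtp: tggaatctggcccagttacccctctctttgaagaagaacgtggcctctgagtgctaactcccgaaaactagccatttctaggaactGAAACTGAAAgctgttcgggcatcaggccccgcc
Irgm1: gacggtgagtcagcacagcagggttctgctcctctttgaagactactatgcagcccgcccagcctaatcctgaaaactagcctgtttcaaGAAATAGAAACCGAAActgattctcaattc
Tgtp1: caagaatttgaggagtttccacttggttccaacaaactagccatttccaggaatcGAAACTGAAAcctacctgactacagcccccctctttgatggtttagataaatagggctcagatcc
Irf1: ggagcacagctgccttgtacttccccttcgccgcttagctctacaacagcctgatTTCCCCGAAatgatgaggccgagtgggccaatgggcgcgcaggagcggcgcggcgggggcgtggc

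The ISRE core was found in 19 of the 42 windows of members, or 45.2%, against 3.44% of all 32851 promoter windows. By gene, 19 of 36 members held it. The GAS core was found in 12 of the 42 windows, or 28.6%, against 8.3% of all windows. Since the members were listed as known interferon genes, these shares describe the list and are not independent evidence. Of the members at least 2-fold higher in GIC, 10 of 16 with a window held an ISRE core and 2 held a GAS core. Of the tested members under that size, 6 of 16 held an ISRE core and 9 held a GAS core. No test was made of these counts. Among the 6 called members, the letters of the ISRE core were in the window of Stat2 and not in those of Oasl1, Oasl2, Trim25 and Xaf1, and Usp18 had no window in the table. A match is a description of the letters and no evidence of binding.

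**Figure D3:**
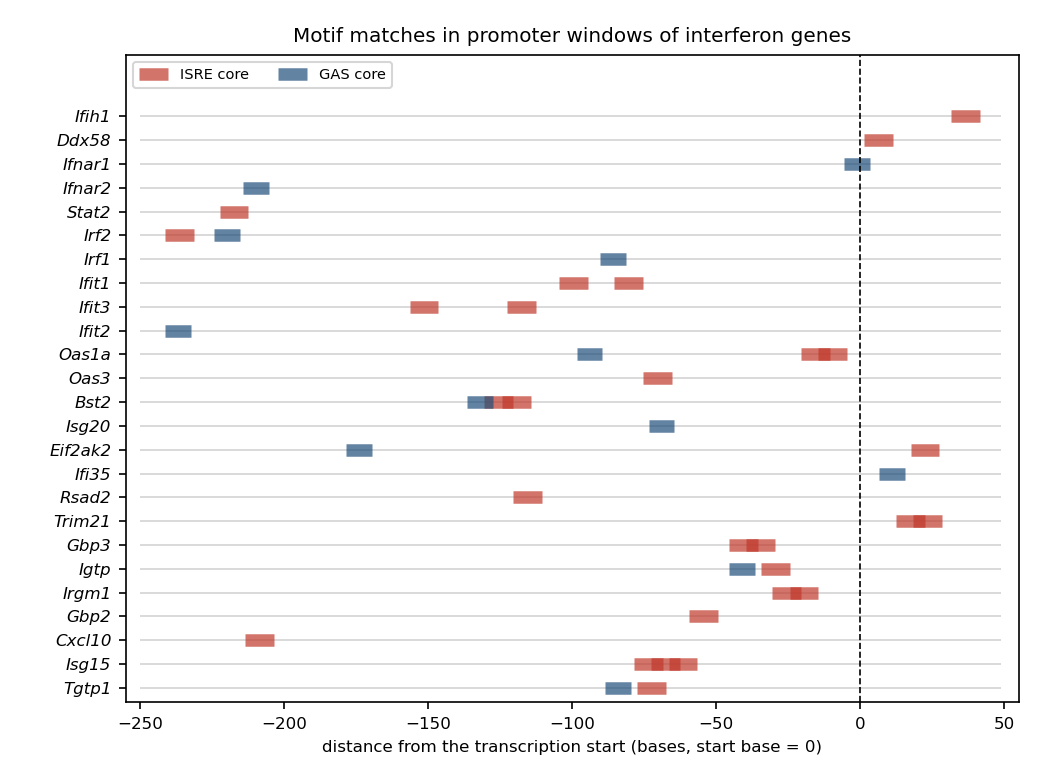
Positions of ISRE core (red) and GAS core (blue) matches in the promoter windows of the members that hold any, one gene per line. The horizontal axis is the distance in bases from the transcription start, with the start base as 0 (dashed line). Adjacent ISRE cores overlap in Isg15, Gbp3, Irgm1, Bst2, Oas1a and Trim21, and a pair of separate cores lies in Ifit1 and Ifit3.

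The IFIT genes, whose products bind viral RNA and block translation, had higher signals in GIC to unequal extents. Ifit1 had signals of 10.28 and 8.63 in GIC and 4.74 and 5.55 in non-GIC, which lay below the filter level. This gene thus entered the test only through the GIC arrays. The group means differed by 4.31 (SE 0.61), with a limma adjusted p of 0.0538. The fold of 19.9 for Ifit1 became 11.2 without GIC replicate 1 and 35.2 without GIC replicate 2, where it passed (0.0306). Ifit3 had 11.47 and 10.35 in GIC and 6.77 and 8.20 in non-GIC, a difference of 3.43 (adjusted p = 0.0847), and its fold of 10.8 became 6.57 if non-GIC replicate 1 was left out and 17.6 if non-GIC replicate 2 was. Ifit2, at 10.38 and 10.25 in GIC and 9.39 and 9.84 in non-GIC, differed by only 0.71. All 3 genes had both GIC arrays above both non-GIC arrays, as had 22.8% of all genes, and none passed the threshold.

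The 2',5'-oligoadenylate synthetases make the second messenger of RNase L, and Oasl1 and Oasl2 belong to the same family. Both of these rose in GIC. Oasl2 had 9.36 and 7.79 in GIC and 4.35 and 4.81 in non-GIC. Both non-GIC signals lay below the filter level, so the size of its fold is uncertain. Oasl2 entered the test only through the GIC arrays, so it had to differ to be tested. It rose 16.0-fold (log2 SE 0.54, limma adjusted p = 0.0484), and the fold was 9.29 without GIC replicate 1 and 27.5 without GIC replicate 2. Oasl1, which restrains translation of Irf7, had 7.38 and 7.07 in GIC and 6.18 and 6.07 in non-GIC. Its rise of 2.15-fold (SE 0.15 on the log2 scale, adjusted p = 0.0483) was the smallest of the 6 called. Neither call held without non-GIC replicate 1 (adjusted p = 0.221 for Oasl2 and 0.193 for Oasl1), without non-GIC replicate 2 (0.165 and 0.183), without the level filter (0.0529 and 0.0543) or with eBayes without a trend (0.0629 and 0.0710). The call of Oasl1 was lost too without GIC replicate 1 (0.152) or 2 (0.0716), and that of Oasl2 with robust eBayes (0.0505).

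Oas1a, Oas1b, Oas2 and Oas3 showed little difference. Oas1a had 8.46 and 8.25 in GIC and 8.05 and 7.89 in non-GIC, and Oas1b, which is truncated in most laboratory strains, had 7.37 and 7.39 against 7.16 and 7.01. In both, the GIC arrays lay above the others, by 0.38 and 0.29 between group means, and neither passed. Oas2 ranged from 7.04 to 7.08 over the 4 arrays with overlapping groups, and Oas3 lay below the filter level on all 4, from 5.48 to 5.76. The MX genes encode dynamin-like GTPases. Mx1, whose gene carries a deletion in C57BL/6 and most laboratory strains, lay below the filter level on all arrays, from 5.15 to 5.78. Mx2 had 7.29 on both GIC arrays and lower signals on both non-GIC arrays, a difference of 0.35 (SE 0.12, limma adjusted p = 0.254).

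Among the other antiviral effectors, Xaf1, a proapoptotic antagonist of the inhibitor Xiap, rose in GIC. Its signals were 10.94 and 9.57 in GIC and 6.60 and 6.64 in non-GIC. The rise was 12.4-fold (log2 SE 0.47, limma adjusted p = 0.0459), and it was 7.70-fold if GIC replicate 1 was left out and 20.0-fold if GIC replicate 2 was. The call was lost without non-GIC replicate 1 (adjusted p = 0.207) or 2 (0.178) and with eBayes without a trend (0.0548). Its other probe set lay below the filter level on every array, and with the mean of both the difference was 1.88 on the log2 scale.

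Rtp4, a chaperone of G-protein-coupled receptors, had 11.71 and 10.27 in GIC and 6.88 and 7.49 in non-GIC. Its difference of 3.80 (SE 0.53) was among the widest, and the limma adjusted p was 0.0520. The fold of 14.0 for Rtp4 became 8.46 without GIC replicate 1 and 23.1 without GIC replicate 2, where it passed (0.0286). Its other probe set lay below the filter level on every array, with a difference of 0.58. Bst2 (tetherin), which holds budding virions at the cell surface, had 11.13 and 9.73 in GIC and 8.45 and 8.07 in non-GIC (2.16, adjusted p = 0.135), and its fold of 4.48 became 2.76 without GIC replicate 1 and 7.27 without GIC replicate 2 (0.0411). The exonuclease Isg20 had 9.77 and 9.43 against 8.54 and 8.74, and the RNA-activated kinase Eif2ak2 had 9.48 and 9.23 against 8.62 and 8.70. Both kept the GIC arrays above the non-GIC arrays, with differences of 0.96 and 0.69. Ifi35 and Ifi27, a mitochondrial protein, had overlapping groups, at 11.18 and 10.29 against 10.08 and 10.33 for Ifi35 and at 11.02 and 10.05 against 9.91 and 10.34 for Ifi27. Rsad2 (viperin), a radical enzyme that blocks viral polymerases and is widely used as an interferon marker, differed by 0.26 only, from 6.71 to 7.07 over the arrays.

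Of the genes of ISG15 conjugation and ubiquitin, Usp18 and Trim25 rose in GIC. Usp18 removes the ubiquitin-like tag ISG15 from proteins and also dampens signalling at Ifnar2. It had 10.52 and 8.90 in GIC and 5.46 and 5.32 in non-GIC, below the filter level, and rose 19.9-fold (log2 SE 0.54, limma adjusted p = 0.0428). Usp18 entered the test only through the GIC arrays, so it had to differ to be tested. The size of its fold is uncertain because of the low non-GIC signals. The fold was 11.4 without GIC replicate 1 and 34.8 without GIC replicate 2. Trim25, a ubiquitin ligase that acts on Rig-I, had 10.22 and 9.76 in GIC and 7.83 and 7.71 in non-GIC and rose 4.67-fold (log2 SE 0.21, adjusted p = 0.0288). Its other probe sets differed by 2.18 and 1.32, also upward, but each of its probe sets is annotated as able to match more than 1 transcript. Both calls were lost without non-GIC replicate 1 (adjusted p = 0.200 for Usp18 and 0.141 for Trim25) or 2 (0.173 and 0.136). That of Usp18 was also lost with eBayes without a trend (0.0524), and that of Trim25 without GIC replicate 1 (0.0699).

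The probe set shared by Isg15 and Gm9706 had 10.99 and 9.75 in GIC and 7.49 and 7.14 in non-GIC. The GIC arrays lay above, by 3.05 between group means, and which of these genes gave the signal cannot be told apart. Trim21, an antibody receptor and ubiquitin ligase, had 8.48 and 7.81 in GIC and 7.64 and 7.40 in non-GIC. Dtx3l, a ligase that works in a complex with Parp9, had 9.68 and 8.60 against 8.41 and 8.43, and Parp9 had 9.83 and 8.69 against 8.64 and 8.47. In these 3 genes GIC replicate 1 stood apart, GIC replicate 2 lay close to the non-GIC arrays, and none passed. Parp14, an ADP-ribosyltransferase of macrophage signalling, differed by 1.21 (SE 0.27, 7.52 and 6.77 against 5.99 and 5.87, adjusted p = 0.125, and 0.0498 without GIC replicate 2), and Parp12 had overlapping groups, from 9.84 to 10.54.

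The guanylate-binding proteins and immunity-related GTPases, which attack the vacuoles of intracellular microbes and are known as targets of interferon gamma above all, were each at least 2-fold higher in GIC. Over all genes, 3.49% had group means at least 2-fold higher in GIC. The 5 with a test differed by 1.80 to 2.75, and none passed the threshold. In all 5 both GIC arrays lay above both non-GIC arrays, as in 22.8% of all genes. Iigp1 entered the test only through the GIC arrays, so it had to differ to be tested. Without GIC replicate 1, Gbp2 went from 4.42-fold to 2.63-fold and Gbp3 from 6.71-fold to 3.88-fold. Igtp then went from 4.53-fold to 2.73-fold and Iigp1 from 3.48-fold to 1.85-fold. Without GIC replicate 2 the folds of Gbp2, Gbp3 and Iigp1 were 7.41, 11.6 and 6.54, and that of Igtp was also larger by more than 1.5 times. Irgm1, a regulator of the other members of its family, had 11.18 and 10.45 in GIC and 8.47 and 8.87 in non-GIC (difference 2.15, SE 0.31, limma adjusted p = 0.0560). Gbp3 had 9.73 and 8.14 against 6.25 and 6.13 (adjusted p = 0.101). Gbp2 had 9.76 and 8.26 against 6.97 and 6.76, and its other probe set differed by 2.04. Igtp (Irgm3) had 10.54 and 9.09 against 7.44 and 7.83. Iigp1 (Irga6) had 7.94 and 6.11 against 5.28 and 5.17, so that GIC replicate 2 was barely above the filter level. The probe set shared by Tgtp1 and Tgtp2, near-identical GTPases, had 10.19 and 8.93 against 5.91 and 5.52, a difference of 3.84 with no test.

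The chemokines attract lymphocytes. Ccl5 had 8.85 and 7.79 in GIC and 6.91 and 7.03 in non-GIC (difference 1.35, SE 0.37, limma adjusted p = 0.172, and 0.0479 without GIC replicate 2). Cxcl10 varied within both sublines, with 10.78 and 9.10 in GIC and 9.27 and 7.73 in non-GIC, and its groups overlapped (1.43, adjusted p = 0.408). Its fold was 1.51 without GIC replicate 1 and 4.83 without GIC replicate 2, and it was 4.61 if non-GIC replicate 1 was left out and 1.58 if non-GIC replicate 2 was.

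The GIC arrays differed from each other in nearly all members, with replicate 1 the higher. GIC replicate 1 lay above GIC replicate 2 in 42 of the 45 genes with a probe set, or 93.3%, against 50.4% of all genes, and by at least 2-fold in 15, or 33.3%, against 1.75% of all genes. The reverse, GIC replicate 2 at least 2-fold above replicate 1, was found in 0 members and in 0.764% of all genes. In the 21 members at least 2-fold higher in GIC, replicate 1 exceeded replicate 2 by 0.30 to 1.82, with a median of 1.37. The non-GIC arrays differed by at least 2-fold in 3 members, Irf9, Ifit3 and Cxcl10, and the median of non-GIC replicate 1 minus replicate 2 over the 45 was -0.03. These are descriptions of single arrays and carry no test.

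Both GIC arrays were nevertheless on the same side of the non-GIC mean for most members. Over the 42 tested, the median difference from the mean of the non-GIC arrays was 1.27 for the first GIC array and 0.70 for the other. A difference of at least 1 (log2) was found in 25 members, or 59.5%, on replicate 1, where 6.04% of all tested genes had one. On replicate 2 it was found in 15 members, or 35.7%, against 3.66% of all tested genes. These comparisons share the non-GIC arrays.

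**Figure D4:**
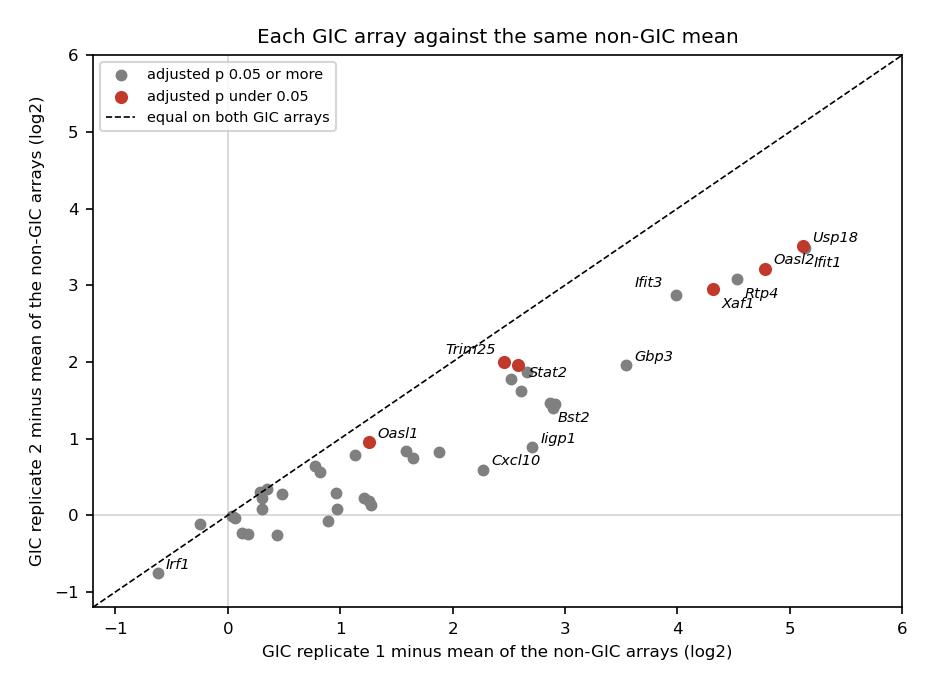
Difference of GIC replicate 1 (horizontal axis) and of GIC replicate 2 (vertical axis) from the mean of the non-GIC arrays (log2), one point for each of the 42 tested members, with the 6 called members in red. Both axes use the same non-GIC arrays. The points lie mostly below the dashed line of equality, so replicate 1 was the higher, and Usp18 and Ifit1 lie farthest from the origin.

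Some other readings also differed between the GIC arrays. For 8 fibroblast and mural cell markers the mean signal was 9.67 for GIC replicate 1 and 8.65 for GIC replicate 2, with non-GIC at 8.99 and 8.91. Col1a1 had 13.59 and 10.70 in GIC and 13.84 and 14.57 in non-GIC, and Col3a1 had 13.89 and 11.32 in GIC and 11.85 and 11.81 in non-GIC. Col1a2 went the other way, with 11.5 and 11.7 in GIC, and its wide gap lay between the non-GIC arrays, at 11.5 and 9.3. Of the 8 markers, 5 were above the filter level on all arrays, Col1a1, Col1a2, Col3a1, Dcn and Pdgfrb, and Lum, Rgs5 and Thy1 were below it on all. GIC replicate 1 was the higher GIC array in 4 of those 5. The 3' minus 5' signal of the pyruvate carboxylase control, 1 of 4 such controls of RNA integrity, was 0.72 for GIC replicate 1 and 0.51 for GIC replicate 2, with non-GIC at 0.42 and 0.47, while that of actin lay between 0.09 and 0.12. The other controls did not set GIC replicate 1 apart, with 0.94 and 0.84 in GIC against 0.97 and 0.89 in non-GIC for the transferrin receptor and -0.31 and -0.29 against -0.18 and -0.22 for Gapdh. The part of these in the differences between the GIC arrays was not tested. Leukocyte markers did not move in this way: the mean of 11 was 6.15 and 6.17 in GIC and 6.09 and 5.94 in non-GIC. Ptprc, Aif1, Itgam, Tyrobp and Ncr1 lay below the filter level on all 4 arrays. Cx3cr1 was barely above it on GIC replicate 1 and below it on the other arrays. Csf1r, Fcer1g, Cd3e, Cd68 and Cd14 lay above it on all 4. Of these 5, Cd14 rose by 1.30 (limma adjusted p = 0.0370). Cd68 differed by 0.53 with both GIC arrays above and did not pass (0.231), nor did the other 3, from -0.30 for Csf1r to -0.01 for Cd3e. The mean of 6 endothelial markers lay between 5.91 and 5.97, with Pecam1, Cdh5 and Tek below the filter level on all arrays and Kdr, Cldn5 and Esam above it on all.

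Genes of the pathway outside the 48 were read from a list of 92, of which 78 had a probe set and 62 were tested. One of the 62 was called, Nlrc5, an activator of class I major histocompatibility genes, and 0 were called lower by limma, where the shares over all tested genes were 1.23% and 0.688%. At an unadjusted p under 0.05, 17 were higher and 2 lower, against 9.75% and 8.1% of all tested genes. Of the 62, 5 passed the filter through the GIC arrays alone (Ifnlr1, Irgm2, Gbp6, Nlrc5 and Phf11d). These had to differ to be tested, and all are among the 17. The median difference over the 78 was 0.196, and that of all genes was -0.02. Nlrc5 had 6.60 and 6.08 in GIC and 4.58 and 4.91 in non-GIC, and rose by 1.60 (limma adjusted p = 0.0483). It entered the test only through the GIC arrays, where it was high. It was called neither without non-GIC replicate 1 (adjusted p = 0.201) or 2 (0.135) nor without GIC replicate 1 (0.114). The call was also lost with quantile normalization (0.0513), without the level filter (0.0543), and with eBayes without a trend (0.0704) or robust (0.0507).

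No ligand, receptor or kinase of the list passed the test. Among 8 tested genes, the receptor chains and kinases with Stat3, 2 were higher and 1 lower at an unadjusted limma p under 0.05. The shares over all tested genes were 9.75% and 8.1%. The receptor chain Ifnlr1 differed by 0.51 with both GIC arrays above (limma adjusted p = 0.126), and Il10rb by -0.77 with both below (0.137). Ifnlr1 entered the test only through the GIC arrays. The interferon genes Ifnb1, Ifna2, Ifna4 and Ifng were below the filter level on all 4 arrays, with Ifnb1 from 5.41 to 5.64. Ifna1 had 6.78 and 6.63 in GIC and 6.48 and 6.44 in non-GIC (adjusted p = 0.360). The kinases Jak1, Jak2 and Tyk2 differed by -0.01, 0.09 and 0.06. The interferon gamma receptor chains Ifngr1 and Ifngr2 differed by -0.31 and 0.31, and neither passed (adjusted p = 0.398 and 0.505). Stat3, which mainly serves other cytokines, had 11.56 and 10.84 in GIC and 9.62 and 10.46 in non-GIC, a difference of 1.16 with both GIC arrays above (adjusted p = 0.241). The feedback inhibitors and phosphatases, 8 genes including Socs1, Socs3 and Ptpn2, ranged from -0.32 for Ptpn6 to 0.65 for Socs1, and none passed.

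The sensing genes outside the members, 12 tested, ranged from -0.57 for the DNA sensor Cgas to 0.68 for the RNA receptor Tlr3, and none passed. The adaptor Mavs, which carries signals from Ddx58 and Ifih1, differed by -0.22, and the kinase Tbk1, which activates Irf3, by 0.40. The other interferon targets were the most uneven of the list, from -1.17 for Ifi204 to 2.92 for Lgals3bp over 31 tested. Lgals3bp, a secreted glycoprotein, had 11.91 and 10.35 in GIC and 7.93 and 8.48 in non-GIC (adjusted p = 0.0993). Irgm2 and Trim30a had differences of 2.65 and 2.28 without passing (adjusted p = 0.158 and 0.124). Irgm2 entered the test only through the GIC arrays. Pml and Daxx, which share nuclear bodies, differed by 0.00 and 0.01.

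**Figure D5:**
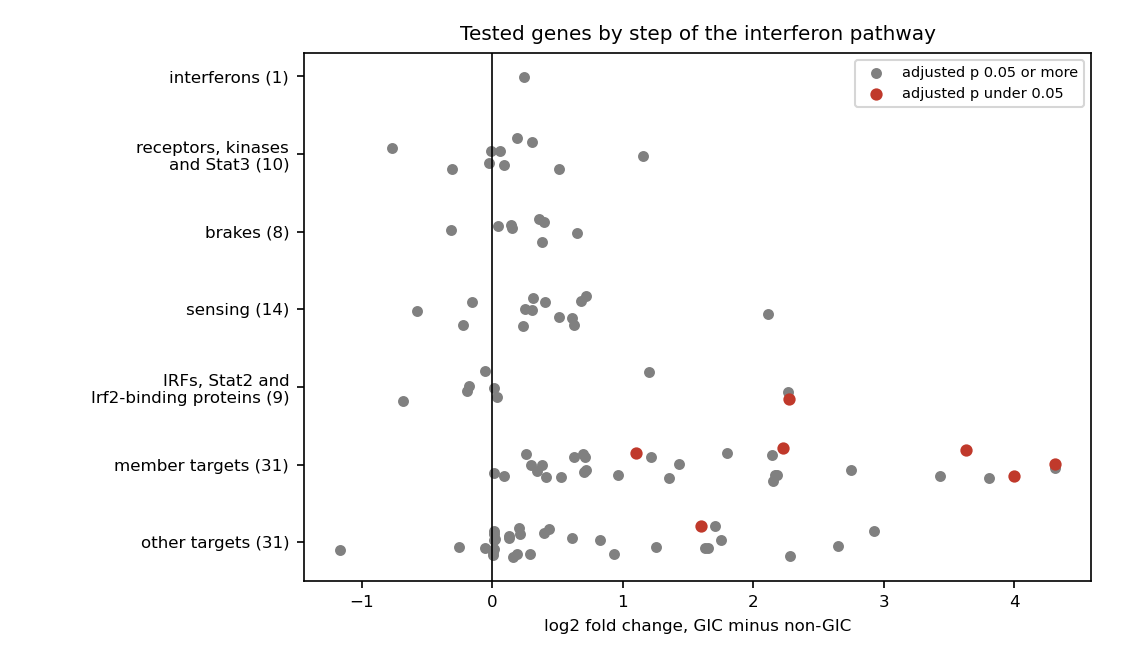
Difference GIC minus non-GIC (log2, horizontal axis) of every tested member and every tested gene of the pathway list, by step of the pathway (vertical axis, with the number of genes). Points are spread vertically for legibility, and red points have a limma adjusted p under 0.05. Receptors, kinases and brakes lie between -0.77 and 0.65, and Stat3, drawn with the receptors and kinases, lies at 1.16. The widest differences lie among the targets.

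The probe sets of a gene mostly told the same direction. The 19 members with more than 1 probe set had 28 others, of which 20 lay above the filter level on at least 2 arrays. Of those 20, 15 had the sign of the probe set used, and the remaining ones belong to Ifnar1, Ifnar2 and Irf3, whose differences were near 0. In 15 of the 45 members the probe set used can bind several transcripts by the suffix of its name (_s, _x or _a). Irf7, Irf9, Oasl2, Isg20 and Gbp3 are among them, each with the suffix _a. Several transcripts can be those of a single gene.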

How the data were processed

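The authors deposited 1 log2 value per probe set and array for 45101 probe sets. That the scale is log2 was inferred from its range, 2.75 to 15.12. Labelling was biotin by in vitro transcription, per the labels' protocols, and the normalization method is not given in the sources used here, which could change small differences. Gene names came from the annotation table of the platform, with symbols updated by Entrez identifier to GRCm38.p6 (34754 matched). Of the probe sets, 34958 had 1 symbol, 932 several and 9211 none.

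From these values, group differences were fitted with the limma package (version 3.58.1, under R 4.3.3), with a model of group alone and a variance trend in eBayes (two-sided tests, 2 residual and 2.72 prior degrees of freedom). An exact permutation test of 2 against 2 arrays cannot go below p = 0.33. The procedure was tested on simulated data. Detection calls were not used, so no gene is called absent, and the number of arrays limits precision.

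The members and lists were chosen with earlier results of these data known. Full statistics are given for members past the threshold and, in roles without one, for the member with the smallest p. Pathway list genes past the threshold are named, and others named were chosen after their values were seen. Promoter windows came from RefSeq. Plots used matplotlib 3.10.9 (Python 3.11.15). Alternatives covered the replicate block, scaling, filter, probe set, eBayes settings and omission of each array.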

Additional observations from a re-analysis of the deposited data

How the results depend on the processing

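Every alternative kept the median difference of the members above 0, from 0.696 without GIC replicate 1 to 1.35 with the filter at the 60th percentile. The blocks and eBayes settings cannot change a difference, so the median stayed at 1.03 in them. Over all genes, 165 were higher and 92 lower in GIC. Among members 6 were higher and 0 lower, and in the pathway list 1 was higher. With the replicate number as a block (replicate block) 21 genes were higher and 8 lower, with 0 members and 0 pathway list genes. The deviations of same-numbered arrays had a correlation of -0.324 over genes. With 2 arrays per group this cannot decide whether the numbers pair the arrays, and the main model holds no pairing. A block with crossed numbers, chosen after seeing the data, gave 457 higher and 228 lower genes, 15 members and 6 pathway list genes. Members called were 2 with eBayes without a trend. Pathway list genes called were 0 with quantile normalization, without a filter, under the 60th percentile filter, and in both eBayes variants (no trend, robust). Leaving out each array in turn gave 5 to 142 genes higher, 7 to 46 lower, 0 to 16 members and 0 to 7 pathway list genes. A group reduced to 1 array borrows its spread from the remaining group. None of the 6 called members passed in every setting, and none changed direction in the settings that could change a difference. Members with differences near 0 (Ifnar2, Irf2, Irf3, Parp12, Oas2 and Ifi27) changed sign in some. The array values carry no depth, and signals under the filter level may understate differences.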
